A study of Mus musculus with 5 samples.

Results

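The genes that encode Polycomb repressive complex 2 (PRC2) were examined for Pcgf6 at their own promoters in mouse embryonic stem cells (ESCs). The 10 genes were a named list, Ezh1, Ezh2, Eed, Suz12, Rbbp4, Jarid2, Aebp2, Mtf2, Phf1 and Phf19, and all 10 were found among the 22359 protein-coding promoters tested. The cells were CCE, an established ESC line at under 15 passages, grown with serum and LIF and fixed with disuccinimidyl glutarate and paraformaldehyde. No gene had been altered and no agent other than the fixatives was given, so the groups differ only in the pull-down. In ChIP-seq, an antibody recovers the DNA cross-linked to its protein for sequencing, and chromatin sequenced with no pull-down (input) gives the background. One group had a Pcgf6 antibody from Santa Cruz (2 libraries), another a Pcgf6 antibody from Abcam (2 libraries), and the third was input (1 library).

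The deposited values are the depth of reads extended to 300 bp, from which the position of each fragment was recovered. Libraries held 2290161 to 2850508 fragments for the antibodies and 22813494 for input. Both libraries of an antibody turned out to be largely the same fragments at shifted positions, since replicate 2 held 87.95% of the fragments of replicate 1 with Santa Cruz and 88.16% with Abcam. They differed by less than the sampling noise (chi-square per degree of freedom over 10 kb windows 0.113 and 0.125, against 1.02 between the antibodies) and were counted as 1 library per antibody. No replicate error exists here, and every interval covers counting error only. Where both libraries of an antibody lie on the same side of input at a gene, this is not a repeated observation. For scale, the germ cell helicase gene Ddx4, picked because earlier results of these data showed it enriched and so no independent check of the pull-down, had ratios to input of 8.95 with Santa Cruz and 10.6 with Abcam. Genes were read from DNA, so the identity of the cells could not be checked against expressed markers.

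PRC2 methylates lysine 27 of histone H3, a mark of silenced developmental genes. Ezh1 or Ezh2 carries the catalytic site, and Eed, Suz12 and Rbbp4 build the core around it. Accessory subunits define the forms of the complex, with Jarid2 and Aebp2 in PRC2.2 and the Polycomb-like proteins Mtf2, Phf1 and Phf19 in PRC2.1. Pcgf6 itself belongs to a variant form of PRC1, in which Mga, Max and E2f6 bind DNA, and whether that form sits on the genes of the other Polycomb complex is the question addressed here.

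Of the 10 PRC2 promoters, 1 passed the threshold with Santa Cruz and none with Abcam. That promoter was Suz12, whose ratio to input was 2.89 with Santa Cruz and 1.76 with Abcam. With Abcam, Jarid2 had the highest ratio of the family, 1.83, followed by Suz12 and then Ezh2 at 1.58, none of them past the threshold. Among all promoters, 0.653% passed with Santa Cruz and 1.09% with Abcam. The test was a one-sided exact binomial test of the fragments within 2 kb of the transcription start site (TSS) against input, scaled by library totals and adjusted after Benjamini and Hochberg over all 22359 promoters, with a threshold of 0.05. It compares the fragments of 2 libraries, not repeated experiments. Without adjustment, a p under 0.05 was reached by 1 of the 10 with Santa Cruz, where 5.03% of all promoters did, and by 3 of the 10 with Abcam, where 6.25% of all did.

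Suz12 (chromosome 11, forward strand, TSS at 79806608 on NCBIM37, the same assembly as mm9) encodes the scaffold subunit of the core. A pair of stretches of its upstream DNA is shown, both from the last kb before the TSS. Among the 1-kb bins within 10 kb of the TSS, that kb held the most fragments of both antibodies, and also the most of input. The promoter sequence is the 250 bases before the TSS (chr11:79806358-79806607), and the summit sequence is 300 bases centred on the Santa Cruz peak (chr11:79805851-79806150), both on the forward strand and clear of annotated exons. Capitals mark CACGTG, the E-box read by Mga and Max, and TCCCGC, the core of the E2F motif, each searched on both strands. For Rbbp4, the member with the lowest Santa Cruz ratio, the 250 bases before the TSS (chr4:129012615-129012864, reverse strand) are given for comparison.
Suz12 summit: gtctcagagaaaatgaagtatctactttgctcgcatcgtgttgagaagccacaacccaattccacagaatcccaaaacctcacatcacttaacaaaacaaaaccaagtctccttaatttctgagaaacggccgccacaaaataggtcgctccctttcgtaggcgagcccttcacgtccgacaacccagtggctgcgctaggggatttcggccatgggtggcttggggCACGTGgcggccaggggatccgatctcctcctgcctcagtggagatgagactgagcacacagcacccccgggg
Suz12 promoter: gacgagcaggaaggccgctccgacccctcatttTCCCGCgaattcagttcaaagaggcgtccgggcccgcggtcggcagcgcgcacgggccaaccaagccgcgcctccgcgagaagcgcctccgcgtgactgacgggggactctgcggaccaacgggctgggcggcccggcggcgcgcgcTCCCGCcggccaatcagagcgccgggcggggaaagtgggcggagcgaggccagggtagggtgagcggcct
Rbbp4 promoter: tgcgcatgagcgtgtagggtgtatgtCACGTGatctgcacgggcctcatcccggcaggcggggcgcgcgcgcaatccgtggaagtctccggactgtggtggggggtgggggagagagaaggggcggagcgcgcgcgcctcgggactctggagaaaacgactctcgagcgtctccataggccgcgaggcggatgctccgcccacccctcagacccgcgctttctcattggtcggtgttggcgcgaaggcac

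The Suz12 summit window held 1 E-box, at -530 bp from the TSS, and no E2F core. An E-box stood in 4.21% of windows of the same length at the same distance from the TSS of all promoters, in 17.3% of 642 Santa Cruz peak summits and in 18.97% of 933 Abcam peak summits. For the E2F core these shares were 7.10%, 20.9% and 26.8%. The peaks were not matched to the promoter windows in distance from a TSS, so the shares of peaks and windows are not directly comparable. The Suz12 promoter held 2 E2F cores, at -217 and -70 bp, and no E-box. The Rbbp4 promoter held 1 E-box at -224 bp and no E2F core. The motifs share no bases with each other in these sequences, and a match describes the letters only.

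Over the whole family, 1 of 10 promoters held an E-box within 250 bases before the TSS, against 6.46% of 22354 promoters with complete sequence. An E2F core was present in 4 of the 10, namely Suz12, Aebp2, Mtf2 and Phf19, against 20.7% of all. The PRC2 promoters were GC-rich, with a median GC content of 66.2% (48.0% at Jarid2 to 79.6% at Aebp2) where the median of all promoters was 54.4%. Their median CpG content was 0.917 of that expected from base composition, against 0.503 for all promoters. High GC content, high CpG content and E2F cores were not particular to PRC2. In the other PRC2-linked, canonical PRC1 and Pcgf6 complex genes treated below, median GC content was 70%, 64.8% and 65.8%. Median CpG content in these genes was 0.882, 0.715 and 0.874 of that expected. An E2F core was present in 2 of 5, 4 of 13 and 5 of 12 of them.

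At the catalytic genes, Ezh1 and Ezh2, neither antibody passed the threshold. Ezh2, the main methyltransferase of ESCs, had a scaled depth (depth within 2 kb of the TSS per 1000000 of the library's total depth) of 4.30 in input, 4.66 and 4.60 in the Santa Cruz libraries, and 6.41 and 6.22 in the Abcam libraries. The Abcam libraries lay above both others. In fragments, Ezh2 had 89 in input, 12 with Santa Cruz and 20 with Abcam. The Santa Cruz ratio was 1.17 (95% interval 0.583 to 2.15, adjusted p = 1 by the exact test). The Abcam ratio was 1.58 (0.922 to 2.59), p = 0.0477 before adjustment and 0.776 after it, by the exact test. Ezh1, its paralogue, which acts mainly in non-dividing cells, had 76, 8 and 13 fragments in input, Santa Cruz and Abcam and ratios of 0.914 (0.381 to 1.89) and 1.20 (0.613 to 2.18). Its Santa Cruz libraries lay on either side of input, at 3.49 and 2.61 against 3.36 in scaled depth.

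Among the core genes, Suz12 stood highest, Eed was near input and Rbbp4 was low with Santa Cruz. The scaled depth at Suz12 was 2.71 in input, 8.12 and 7.19 in the Santa Cruz libraries, and 4.76 and 4.06 in the Abcam libraries. All ChIP libraries lay above input, and both Santa Cruz libraries above both Abcam libraries, where the 2 libraries of an antibody are largely the same fragments. The fragments were 60, 20 and 15 in input, Santa Cruz and Abcam. With Santa Cruz the ratio was 2.89 (1.65 to 4.87, p = 0.000143, adjusted p = 0.0265 by the exact test). With Abcam it was 1.76 (0.928 to 3.14, p = 0.0415, adjusted p = 0.746 by the exact test). These ratios stood at percentiles 97.1 and 90.4 of all promoters. A difference between the antibodies was not shown at Suz12, where the Abcam to Santa Cruz ratio was 0.608 (0.290 to 1.25, p = 0.194, adjusted p = 1, 2-sided exact binomial test).

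The Santa Cruz call at Suz12 had no margin. With 60 input fragments, 20 Santa Cruz fragments were the fewest that pass, and 20 were found. The call was lost without Santa Cruz replicate 1 (17 fragments, ratio 2.75, adjusted p = 0.0977 by the exact test) and with windows of 1 kb (ratio 2.43) or 10 kb (ratio 1.43) on each side of the TSS. With Abcam, 22 fragments would have been needed, a ratio of 2.58.

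**Figure D1:**
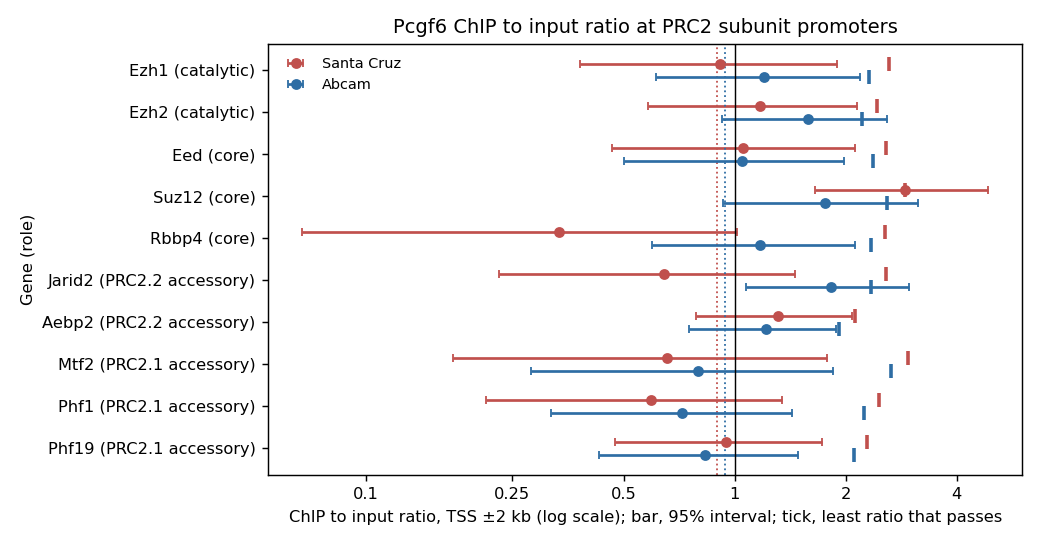
Ratio of ChIP to input fragments within 2 kb of the TSS (horizontal, log scale) for each PRC2 gene with its role (vertical). Points are the Santa Cruz and Abcam libraries, bars are exact 95% intervals of counting error, short ticks are the smallest ratio that would pass the threshold, and dotted lines are the medians of all promoters (0.898 and 0.943). The Santa Cruz point of Suz12, at 2.89, coincides with its tick, and every other point lies to the left of its own.

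Around Suz12, of the 1-kb bins within 10 kb of the TSS, the 3 with the most Santa Cruz fragments were those next to one another at the TSS. Between 2 and 1 kb upstream of the TSS there were 8, 6 and 3 fragments in input, Santa Cruz and Abcam, and in the last kb before the TSS there were 28, 8 and 8. In the first kb of the gene there were 22, 6 and 2. Both antibodies thus had their highest bin in the same place, just upstream of the TSS, which was also the highest bin of input. Within each library, the density of fragments within 2 kb of the TSS was 1.51 times that of the flanks (2 to 10 kb away) in input, 4.999 times with Santa Cruz and 5.45 times with Abcam. The flanks held 159, 16 and 11 fragments. The Abcam flanks thus held fewer fragments than those of Santa Cruz, although the Abcam library was larger (3164421 against 2566688 fragments). Within 2 kb of the TSS, Abcam also had fewer fragments (15 against 20) and the lower ratio to input (1.76 against 2.89). A stronger enrichment at the TSS with Abcam was therefore not shown. The 2 values against the flanks rest on few fragments, and a difference between them was not tested.

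Peaks were sought in windows of 600 bp with a Poisson test against local input rates at a p cutoff of 1e-05, which gave 643 peaks with Santa Cruz and 933 with Abcam. Of the 10 PRC2 genes, 1 had a Santa Cruz peak within 10 kb of its TSS and none an Abcam peak, where 1.98% and 3.26% of all promoters did. The Santa Cruz peak was upstream of Suz12 (chr11:79805701-79806350), with its summit at -608 bp, 8 fragments where 0.898 were expected, and p = 4.76e-06 by the exact Poisson test. At the looser cutoff of 0.0001, Abcam gave a peak that overlapped it (chr11:79805801-79806400), with its summit at -508 bp, 8 fragments where 1.11 were expected, and p = 2.11e-05 by the exact Poisson test. At the stricter cutoff of 1e-06 no PRC2 gene had a peak with either antibody.

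**Figure D2:**
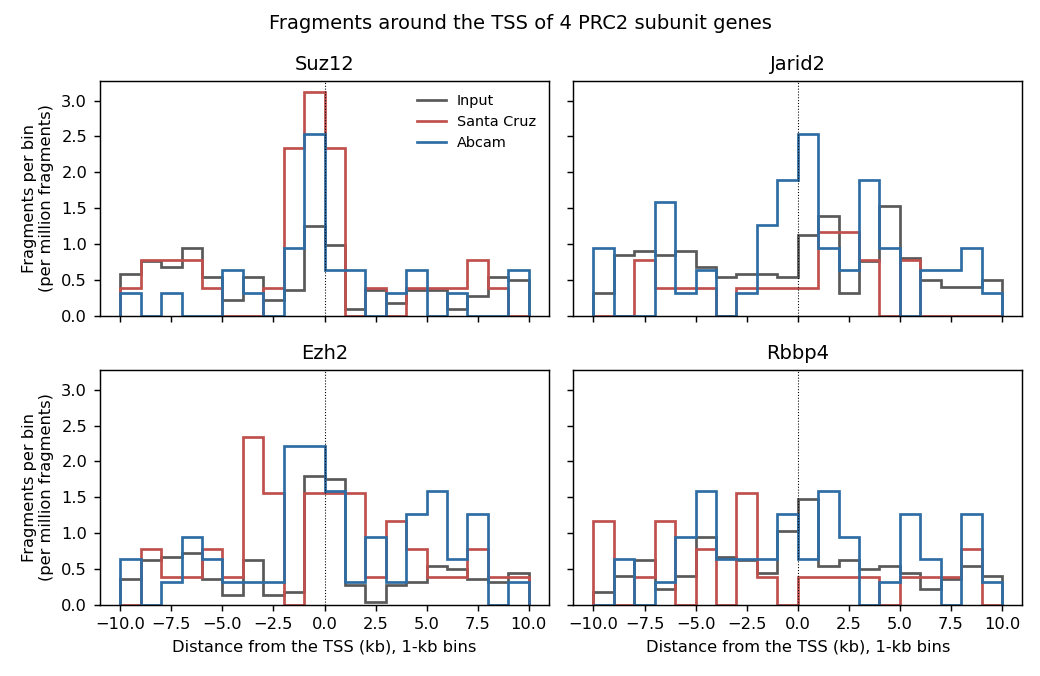
Fragments per 1-kb bin, per 1000000 fragments of the library (vertical), by distance from the TSS in kb in the direction of transcription (horizontal), for Suz12, Jarid2, Ezh2 and Rbbp4, with input, Santa Cruz and Abcam as separate lines. At Suz12 Santa Cruz reaches 3.12 and Abcam 2.53 in the bin before the TSS, where input is 1.26, while in the first kb after the TSS of Jarid2 Abcam is 2.53 and Santa Cruz 0.390, which is 1.17 in each of the following 2 bins.

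Eed, the subunit that binds methylated histone H3, had 74, 9 and 11 fragments in input, Santa Cruz and Abcam. Its ratios were 1.06 (0.465 to 2.11) and 1.05 (0.501 to 1.98), both near the level of input. In scaled depth, Eed was above input in both Santa Cruz libraries (3.93 and 3.91 against 3.42) and below it in both Abcam libraries (2.54 and 3.10). Rbbp4, a histone chaperone shared with other chromatin complexes, had a scaled depth of 3.53 in input, 1.19 and 1.16 in the Santa Cruz libraries, and 4.42 and 3.54 in the Abcam libraries. The Santa Cruz libraries were the only ones below input. Its 3 Santa Cruz fragments, against 78 in input, gave a ratio of 0.334 (0.0674 to 1.01), the lowest of the family, and its 13 Abcam fragments a ratio of 1.17 (0.598 to 2.13). The antibodies did not pass the threshold for a difference at Rbbp4 (Abcam to Santa Cruz 3.51, 0.966 to 19.2, p = 0.0585, adjusted p = 1, 2-sided exact binomial test). Rbbp4 shares its promoter head to head with Zbtb8os, which starts 325 bp away on the other strand, so the window serves both genes.

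**Figure D3:**
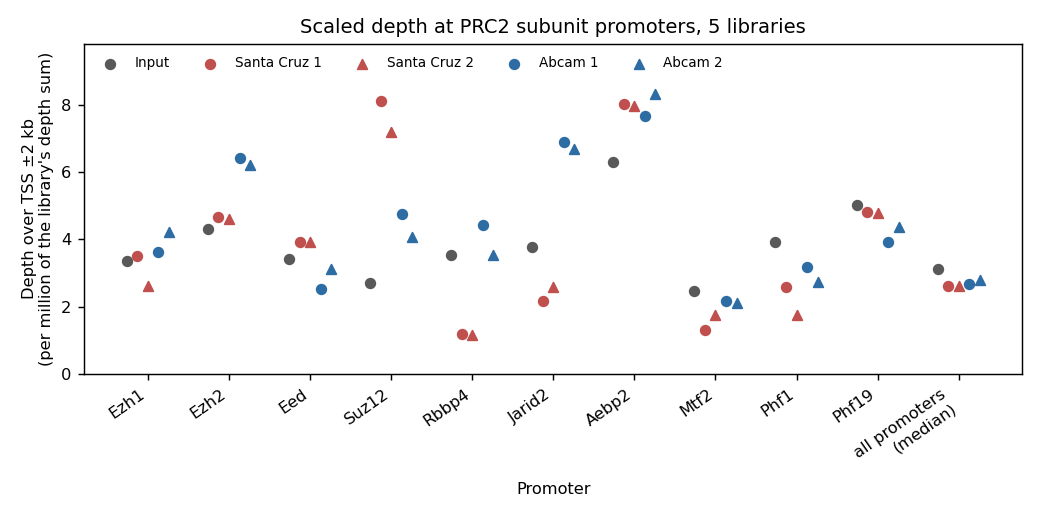
Depth within 2 kb of the TSS per 1000000 of the library's total depth (vertical) at each PRC2 promoter and, at the right, the median of all promoters (horizontal), with 1 point per library. The Santa Cruz points of Suz12 (8.12 and 7.19) stand clear of its input point (2.71), those of Rbbp4 (1.19 and 1.16) lie under its input point (3.53), and all 5 points of Aebp2 are high.

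Of the PRC2.2 genes, Jarid2 lay below input with Santa Cruz and above it with Abcam, a difference that did not pass the adjusted threshold, and Aebp2 was high in every library. Jarid2, which helps to bring PRC2 to chromatin, had a scaled depth of 3.77 in input, 2.15 and 2.58 in the Santa Cruz libraries, and 6.88 and 6.67 in the Abcam libraries. Both Santa Cruz libraries lay below input and both Abcam libraries above it, where the 2 libraries of an antibody are largely the same fragments. The 81 input fragments stood beside 6 with Santa Cruz, a ratio of 0.643 (0.229 to 1.46), and 21 with Abcam, a ratio of 1.83 (1.07 to 2.98, p = 0.0134, adjusted p = 0.437 by the exact test). At Jarid2, 27 Abcam fragments would have passed. The Abcam to Santa Cruz ratio was 2.84 (1.11 to 8.60), p = 0.0265 before adjustment and 1 after it by the 2-sided exact binomial test, a threshold that 2 of all promoters (0.00894%) and none of the 10 members passed. Without adjustment, a difference with p under 0.05 was found at 1 of the 10 and at 540 of all 22359 promoters. The Abcam fragments at Jarid2 numbered 4, 6, 8 and 3 in successive bins of 1 kb from 2 kb upstream to 2 kb downstream, where input had 13, 12, 25 and 31. Of the 21, 14 lay within 1 kb of the TSS, where the Abcam ratio was 2.66 and did not pass the threshold.

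Aebp2, a zinc finger subunit, had 139 input fragments, at percentile 99.4 of all promoters. Its scaled depth was 6.31 in input, 8.01 and 7.95 in the Santa Cruz libraries, and 7.65 and 8.33 in the Abcam libraries. With 21 and 24 fragments the ratios were 1.31 (0.787 to 2.08) and 1.22 (0.754 to 1.88), and the high depth at Aebp2 was thus seen in input as well. The deep input made Aebp2 the member at which the smallest enrichment could have passed, a ratio of 2.12 with Santa Cruz and 1.92 with Abcam.

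The PRC2.1 genes had ratios below 1 with both antibodies in the reported setting. This was not particular to them, since only 40.9% (Santa Cruz) and 44.9% (Abcam) of all promoters had a ratio over 1. With Santa Cruz, Phf19 stood at percentile 54.6 of all promoters. Phf19 was above 1 with Santa Cruz when libraries were scaled by the median promoter (1.08). It was also above 1 with both antibodies in windows of 1 kb (1.81 and 1.03), and Mtf2 was with Abcam in windows of 10 kb (1.08). Mtf2, the Polycomb-like subunit most used in ESCs, had 53, 4 and 6 fragments in input, Santa Cruz and Abcam and ratios of 0.655 (0.172 to 1.78) and 0.797 (0.280 to 1.85). Phf1 had 88, 6 and 9 fragments and ratios of 0.592 (0.211 to 1.34) and 0.720 (0.319 to 1.43). Phf19 had 110, 12 and 13 fragments and ratios of 0.947 (0.475 to 1.72) and 0.832 (0.429 to 1.48). Each of these intervals includes 1, so a lower level than input was not shown at this depth. An enrichment of 2.95-fold at Mtf2, the least sampled of the family, would have been needed to pass with Santa Cruz.

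Taking the 10 genes as a list, the median ratio was 0.930 with Santa Cruz (lowest 0.334, highest 2.89) and 1.19 with Abcam (0.720 to 1.83). The medians of all promoters were 0.898 and 0.943, below 1 on this scaling, and 6 of the 10 members lay above the median of all promoters with Santa Cruz and 7 with Abcam. A ratio over 1 was found at 4 of 10 with Santa Cruz and 7 of 10 with Abcam, where 40.9% and 44.9% of all promoters had one. The Abcam count includes Eed (1.05), which lay below input in scaled depth in both Abcam libraries (0.741 and 0.907 of input). By scaled depth, 5 and 4 members were over input in the Santa Cruz libraries and 6 in each Abcam library. When libraries were scaled by the median promoter, the members' medians became 1.06 and 1.28, which takes the Santa Cruz median from below 1 to above it. All fragments of the 10 promoters summed to 848 in input, 101 with Santa Cruz and 145 with Abcam, ratios of 1.03 (0.833 to 1.27) and 1.20 (1.0025 to 1.44). The same sums over all promoters gave 0.941 and 0.990. These intervals cover the counting error of the pooled fragments and not the spread between genes, so they are no test of the list.

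In 500-bp bins over the 10 promoters together, the Santa Cruz ratio ranged from 0.812 to 1.45, and every interval included 1. With Abcam the highest bins lay on both sides of the TSS, at 1.90 (1.11 to 3.10) from -1500 to -1000 bp, 1.76 (0.988 to 2.98) from 1500 to 2000 bp and 1.63 (1.10 to 2.37) in the 500 bp before the TSS. The lowest was 0.456 (0.204 to 0.891) from 500 to 1000 bp, where 9 Abcam fragments stood beside 139 in input. Over all promoters the Abcam ratio of these 4 bins, in the same order, was 0.981, 0.957, 0.995 and 0.992. The 4 bins were picked as highest and lowest after their values were seen, and their intervals were not adjusted for that. Each interval pools the fragments of all 10 genes and leaves out the spread between genes. From -1500 to -1000 bp, Ezh2 alone gave 6 of the 21 Abcam fragments, beside 3 of the 78 in input.

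Other genes tied to PRC2 or to Polycomb were read in the same way. Of 5 further PRC2-linked genes (Rbbp7, E130012A19Rik, Lcor and the histone H3 lysine 27 demethylase genes Kdm6a and Kdm6b), none passed with either antibody, and the medians were 0.579 and 0.764. Their highest Santa Cruz ratio was 1.35 at Rbbp7, the paralogue of Rbbp4, and their lowest Abcam value was at Kdm6a, with 0 fragments against 45 in input and an upper limit of the ratio of 0.602. Of 13 canonical PRC1 genes none passed either, with medians of 0.637 and 0.757. The highest were Ring1 with Santa Cruz (1.01) and Phc1 with Abcam (1.41), and the lowest was Scmh1 with both (0.543 and 0.440, 1 fragment each).

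The 12 genes of the Pcgf6 complex itself had medians of 0.888 with Santa Cruz and 1.48 with Abcam, with a ratio over 1 at 5 and 8 of them, and 3 passed with Santa Cruz and 4 with Abcam. Mga, the DNA-binding scaffold of that complex, had ratios of 3.37 (2.18 to 5.09) and 4.31 (2.99 to 6.15), E2f6 had 3.52 and 4.57, and the deacetylase gene Hdac2 had 4.40 and 4.13. Tfdp1, the E2F partner, passed with Abcam alone (2.53, adjusted p = 0.0104 by the exact test), and its Santa Cruz ratio was 2.23 (adjusted p = 0.217). The Santa Cruz interval at Suz12 (1.65 to 4.87) overlaps those at Mga, E2f6 and Hdac2. Its Abcam interval (0.928 to 3.14) overlaps only the lower ends of theirs, which start at 2.99, 3.11 and 2.78. No test between lists was made.

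**Figure D4:**
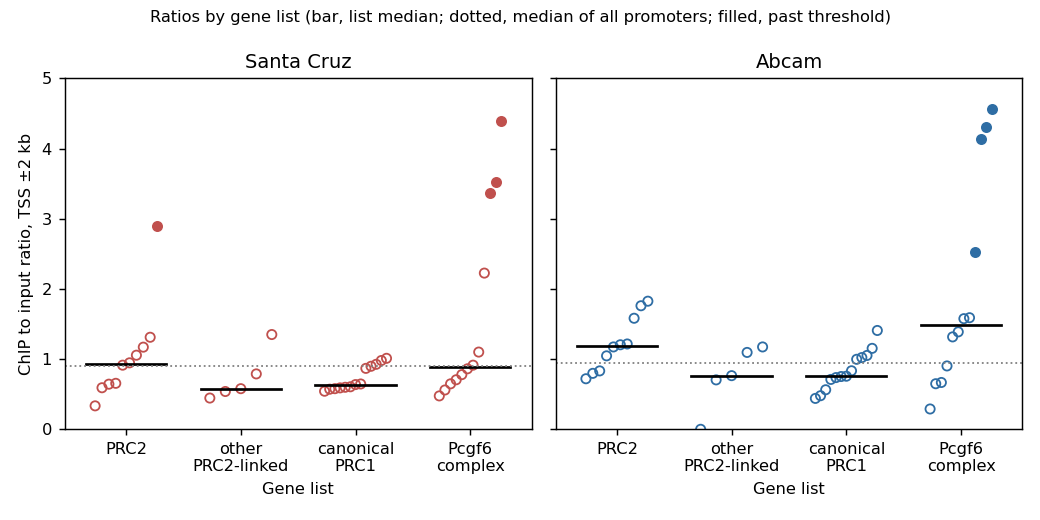
Ratio of ChIP to input within 2 kb of the TSS (vertical) for the promoters of 4 gene lists (horizontal), Santa Cruz on the left and Abcam on the right. Points are promoters in rising order, filled where past the threshold, black bars are list medians, and the dotted line is the median of all promoters. Suz12 is the only filled PRC2 point, with Santa Cruz, while the Pcgf6 complex has 3 and 4 filled points and the canonical PRC1 list none.

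The values at Suz12 and Jarid2 were recomputed under each other setting. The Santa Cruz ratio at Suz12 stayed between 1.43 and 3.30 and passed the threshold in 6 of the 9 settings, with fragments counted as deposited, windows of 3 kb, both other scalings, the most upstream TSS, and without Santa Cruz replicate 2. Of these passes, the most upstream TSS of Suz12 is the one already used, so that setting repeated the same 20 fragments. Counting as deposited took shared fragments 2 times (36 fragments), which lowers p at a nearly unchanged ratio (2.89). Both other scalings used the same 20 fragments. Without Santa Cruz replicate 2, 19 fragments were left, and the window of 3 kb, which contains that of 2 kb, held 22. None of the 6 passes is an independent observation that adds support to the call. Its Abcam ratio lay between 0.836, in windows of 10 kb, and 1.90, and never passed. At Jarid2 the Santa Cruz ratio stayed below 1 in all settings (0.469 to 0.860) and the Abcam ratio above 1 (1.14 to 2.66), with no setting past the threshold. The unadjusted p of the difference between the antibodies at Jarid2 went over 0.05 in windows of 3 kb (0.0994) and without Santa Cruz replicate 1 (0.0530) by the exact test, and the smallest adjusted p was 0.108, with fragments counted as deposited.

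**Figure D5:**
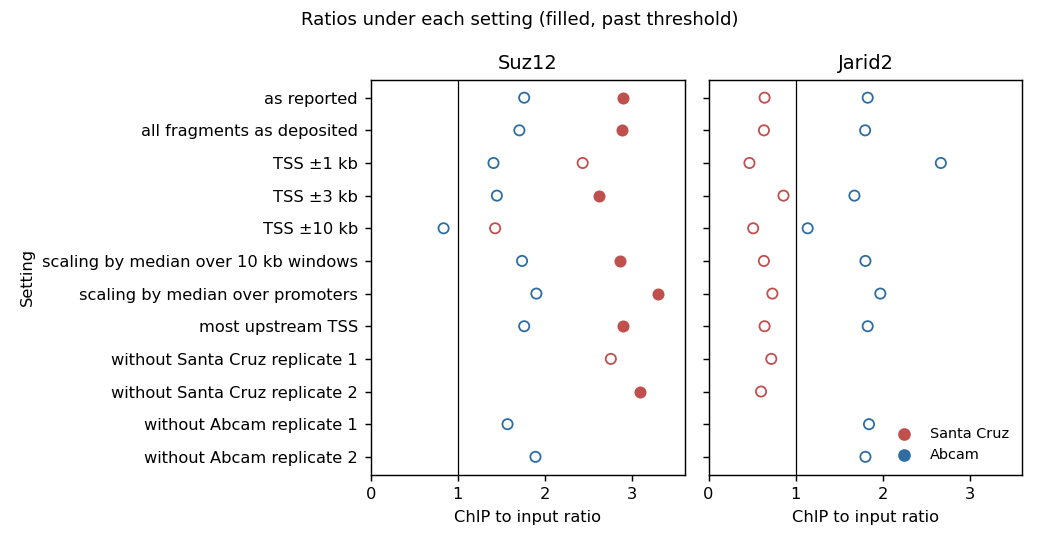
Ratio of ChIP to input (horizontal) at Suz12 and Jarid2 under each setting (vertical), with Santa Cruz and Abcam as separate colours and filled points past the threshold. At Suz12 the Santa Cruz points are filled except in windows of 1 kb and 10 kb and without Santa Cruz replicate 1, and at Jarid2 no point is filled.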

How the data were processed

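ChIP-seq of Pcgf6 in CCE ESCs was analysed from 5 libraries. The authors deposited, for each library, a coverage signal on mm9, in whole numbers, of reads lengthened to 300 bp, neither scaled nor divided by input. Bowtie 0.1.2.7 is listed in the submitters' processing notes, and the treatment of duplicate reads is not given in the sources used here. Fragments sharing a position made up 2.33% of input and 0.322% to 0.367% of the ChIP libraries.

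Fragment positions were recovered from the steps in depth, 1 per position was kept, and a fragment found in both replicates at a shift of 1 or 15 positions was counted once. The joined libraries held 22281796 (input), 2566688 (Santa Cruz) and 3164421 (Abcam) fragments, which sets the precision. Fragments with their middle within 2 kb of the TSS used by most protein-coding transcripts (GENCODE vM1) were compared with input by exact binomial tests, with Clopper-Pearson 95% intervals. MACS was not used. Peaks came from a Poisson test (600 bp windows, 50 bp steps, highest of genome-wide, 5 kb and 10 kb input rates). On simulated data, a planted 2-fold enrichment was called at 17% (Santa Cruz) and 18% (Abcam) of promoters, and a 4-fold one at 86% and 96%. Alternatives covered duplicates, window, scaling, TSS, peak cutoff and each replicate left out.

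The members and lists were chosen with earlier results of these data known. Named are all 10 members, genes of the other lists past the threshold or highest and lowest in their list, neighbours within 2 kb, and Ddx4. Sequences are from the NCBIM37 genome. Computation was in Python 3.11.15 with scipy 1.17.1 and numpy 2.4.6, decoding in numba 0.67.0, tables in pandas 2.3.3, plots in matplotlib 3.10.9.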

Additional observations from a re-analysis of the deposited data

How the results depend on the processing

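No paired analysis was possible because the replicates of each antibody are the same fragments and there is a single input library. Of the 90 member ratios recomputed per antibody, 7 with Santa Cruz and 11 with Abcam moved across 1, and 2 and 1 left the interval of the reported value. The members called were 1 with Santa Cruz, 0 in windows of 1 kb and of 10 kb, and 0 to 1 with a replicate left out. The Abcam count of members was 0 under every setting run. The median member ratio with Santa Cruz fell to 0.674 in windows of 1 kb and ranged from 0.870 to 1.002 with a replicate left out.

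With fragments counted as deposited, so that shared fragments count 2 times, 384 (Santa Cruz) and 620 (Abcam) promoters passed in place of 146 and 243, 140 in place of 2 for the antibody difference, and the peaks were 5623 and 6196 in place of 643 and 933. Windows of 10 kb gave 88 Santa Cruz promoters, and windows of 1 kb gave 1 antibody difference. A peak cutoff of 0.0001 gave 1255 and 2123 peaks and one of 1e-06 gave 408 with Santa Cruz. The genome-wide rate alone gave 1166 and 1588. Members with a Santa Cruz peak within 10 kb numbered 1 as reported, 3 (Ezh2, Eed, Suz12) at 0.0001 and with fragments as deposited, and 0 at 1e-06. With Abcam they numbered 0 as reported, 1 at 0.0001 (Suz12), 1 with the genome-wide rate alone (Aebp2) and 5 with fragments as deposited. With a replicate left out, each antibody had 0 to 1. The share of all promoters with a peak was computed for the reported cutoff only. The member counts under the other peak settings therefore have no background and show no excess at the members. The causes were not tested. At this depth, a ratio of 2.12 to 2.95 was needed to pass at a member with Santa Cruz and 1.92 to 2.66 with Abcam.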

Other observations

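Ezh2, Jarid2, Aebp2 and Mtf2 have further annotated protein-coding starts more than 2 kb from the one used. At Mtf2, the start 21252 bp downstream (chromosome 5, 108516015) had 29 input, 6 Santa Cruz and 11 Abcam fragments, ratios of 1.80 (0.610 to 4.40) and 2.67 (1.20 to 5.51), where the main start had 0.655 and 0.797. This start was singled out among 10 after its values were seen, and no adjusted p was computed for it. The intervals at the other 9 starts, in Ezh2, Jarid2, Aebp2 and Mtf2, included 1 with both antibodies.

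At the peak cutoff of 0.0001, Santa Cruz peaks also lay near Ezh2, with the summit at -3121 bp from the TSS and 7 fragments where 1.03 were expected (p = 9.97e-05 by the exact Poisson test), and near Eed, 5193 bp downstream with 7 where 0.824 were expected (p = 2.49e-05 by the same exact test). Abcam had no peak at either place at that cutoff.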
